A study of Saccharomyces cerevisiae with 11 samples.

Results

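The transcript levels described here are those of wild-type budding yeast (*Saccharomyces cerevisiae*) growing in rich glucose medium, measured on 5 of the 11 arrays of the series. The 5 are the arrays titled W303 1B, taken by title, and all 5449 genes with a named *S. cerevisiae* probe set were kept. The labels give the strain as W303-1B, of mating type MATa with mutant alleles of *LEU2*, *ADE2*, *TRP1*, *HIS3* and *URA3* as auxotrophic markers, grown at 30°C in YPAD to mid-log phase, and name the arrays biological replicates. The methods call the medium YEPD and speak of 3 determinations per strain, against 5 wild-type arrays here. The other 6 arrays are 3 of *rna14-1* and 3 of *rna15-1* cells. Their labels give the same markers, mating type, medium and temperature. These cells have in addition a mutation in a subunit of cleavage factor I, needed to form mRNA 3′ ends.

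Each value is the signal of a probe set, a group of short oligonucleotides that match a transcript, as a log2 intensity after robust multiarray averaging (RMA). A step of 1 is a doubling of the signal. Probe sets differ in how strongly their oligonucleotides bind, so the order of genes by signal ranks transcript abundance only roughly. Cell number and RNA per cell cannot be told apart in a culture, and all levels are relative to the total RNA of the sample.

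Budding yeast ferments glucose even in air. While glucose lasts, it keeps the genes for glycolysis, ribosomes and translation strongly expressed and represses those for other carbon sources, respiration and gluconeogenesis. A haploid cell of mating type a expresses the a-specific genes, a cell of type alpha expresses the alpha-specific genes in their place, and neither expresses the meiotic programme, which belongs to starved diploids.

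The arrays had nearly equal scales, with medians over all genes between 10.34 and 10.36. Background was taken on each array as the 95th percentile of 1746 named probe sets whose gene is not in the *S. cerevisiae* table, and it lay between 4.33 and 4.44. Above it were 5364 genes on all 5 arrays, 59 on some of them and 26 on none. Replicates 1 and 2 stood apart from replicates 3, 4 and 5. Across all 5449 genes, Pearson's r was 0.994 between replicates 1 and 2, between 0.991 and 0.996 among the other 3, and between 0.981 and 0.989 from one set to the other.

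Several control probe sets of the array maker separated the same arrays. All 8 probe sets for 25S ribosomal RNA were brighter on replicates 1 and 2, with means of 12.89 and 13.17, than on replicates 3, 4 and 5, with 12.02, 12.08 and 11.91. The 6 probe sets for the *bioC* RNA, a bacterial control that is added to the sample, ran the other way, with 8.83 and 9.43 on replicates 1 and 2 and 10.84, 10.98 and 10.55 on the others. The other added controls did not all follow *bioC*. Brightest on replicates 1 and 2 were *cre* in 6 of 6 probe sets, *dap* in 9 of 9 and *thr* in 6 of 9. The same held for *bioD* in 3 of 6 and *phe* in 3 of 9. *bioB* and *lys* were brightest there in none of 9, and dimmest there in 3 and 4 of 9. The probe sets for both ends of *ACT1*, the actin gene, differed by 0.71 and 0.67 (3′ minus 5′) on replicates 1 and 2 and by 0.38, 0.49 and 0.41 on replicates 3, 4 and 5. Of 8 genes with such a pair, 5 had a larger difference on both replicates 1 and 2 than on any other wild-type array. Ribosomal RNA, several added controls and the difference between the ends of transcripts therefore moved with the same arrays as the gene values below, and their part in those values was not tested.

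The mating-type genes went against the label. The 5 alpha-specific genes measured had means between 12.15 (*STE3*, the receptor for a-factor) and 13.33 (*MF(ALPHA)1*, the main gene for the alpha-factor pheromone), above at least 87.0% of all genes. The 7 a-specific genes had means between 6.06 (*ASG7*) and 7.93 (*BAR1*, the protease that degrades alpha-factor), at or below the 9.67th percentile of all genes. *MFA1*, a gene for the a-factor pheromone, had 7.27, 7.30, 7.77, 7.82 and 7.71 on replicates 1 to 5, and *STE2*, the receptor for alpha-factor, had 7.12, 7.90, 7.75, 8.01 and 7.65. All 7 were above background on every array, so the dim genes were not at zero signal. *HMRA1*, from the silent cassette that carries the a information, had 3.17, 2.99, 3.91, 3.70 and 2.98, below background on all arrays. Genes of type alpha were thus bright and genes of type a dim on arrays whose genotype label reads MATa. By these genes the pattern was that of type alpha, and the genotype itself was not tested. The strain is called wild type below.

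**Figure D1:**
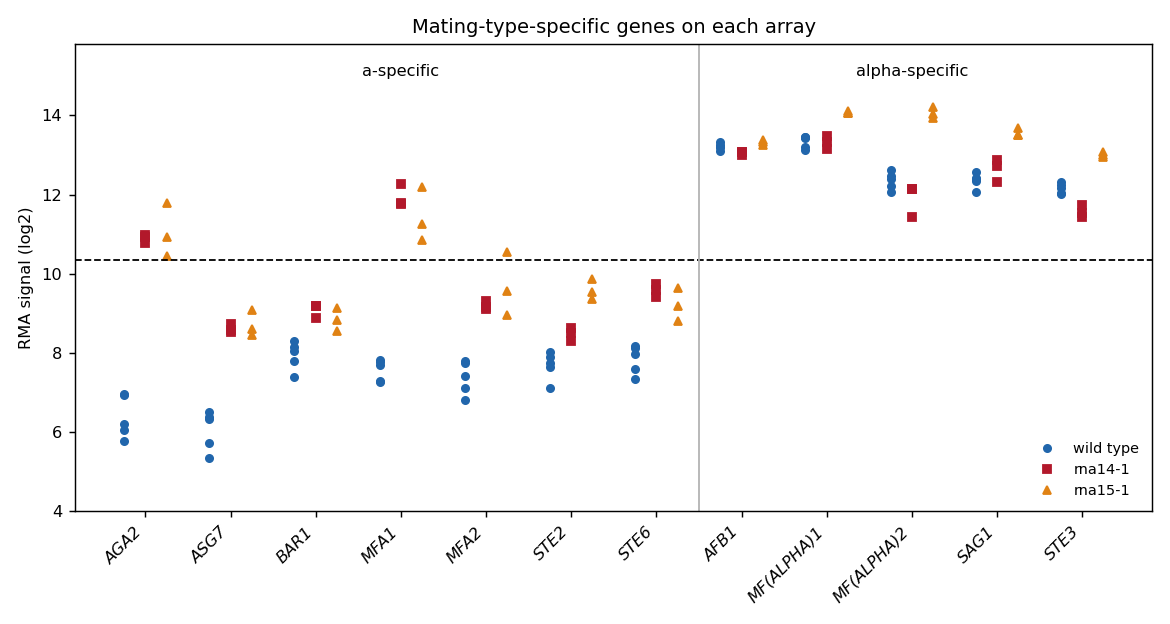
Signal (log2, vertical axis) of the 7 a-specific and 5 alpha-specific genes, one point per array, for wild type (circles, n = 5), *rna14-1* (squares, n = 3) and *rna15-1* (triangles, n = 3); the dashed line is the wild-type median of all genes, 10.35. The wild-type arrays lie below every mutant array for all 7 a-specific genes, and the alpha-specific genes lie above the dashed line on all 11 arrays.

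The same genes were set against the mutant arrays with limma, fitted over all 11 arrays and called at an adjusted p under 0.01. The labels of the mutants also read MATa, and whether the strains share a mating type was not tested. *AGA2*, a subunit of a-agglutinin, had 6.06, 6.21, 6.94, 6.97 and 5.79 in wild type, against 10.77, 10.94 and 10.97 in *rna14-1* and 10.93, 10.45 and 11.78 in *rna15-1*. Its difference, wild type minus mutant, was -4.50 ± 0.33 (SE, limma adjusted p = 7.1e-07) for *rna14-1* and -4.66 ± 0.33 (limma adjusted p = 8.68e-07) for *rna15-1*. All 7 a-specific genes were lower in wild type than in each mutant, where 32.8% of all 5449 genes were lower than in *rna14-1* and 28.2% lower than in *rna15-1*. *STE2* had the smallest difference from *rna14-1*, -0.79 ± 0.19 (limma adjusted p = 0.00289), and its call was lost without *rna14-1* replicate 1 (-0.71, limma adjusted p = 0.0165) or replicate 2 (-0.78, 0.0120). Of the alpha-specific genes, *STE3* was the only one called higher in wild type than in *rna14-1*, by 0.59 ± 0.09 (limma adjusted p = 0.00015), beside 29.5% of all genes, and none was called lower. Against *rna15-1*, 4 of the 5 were lower in wild type and none was higher, beside 24.7% of all genes called higher. *BAR1* lost its call against *rna15-1* without *rna15-1* replicate 3 (-0.75, limma adjusted p = 0.0105). *AFB1*, which encodes a blocker of a-factor, was not called (-0.11 ± 0.07, limma adjusted p = 0.163).

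Markers of sporulating diploids and of glucose-starved cells were dim. The 8 genes of sporulating diploids had means between 5.30 (*DIT2*) and 8.22 (*IME2*, the meiotic kinase), and the 6 genes of glucose-starved cells between 7.43 (*FBP1*, of gluconeogenesis) and 9.21 (*ADH2*). The 6 markers of stationary or starved cells were wider, between 8.46 (*SPS100*) and 11.64 (*HSP12*, a small membrane-protecting stress protein). *HSP12* was bright, at the 79.5th percentile of all genes. All 20 were above background on all 5 arrays.

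Of the auxotrophic marker genes, 4 were measured. *LEU2* averaged 11.99 ± 0.21 (SD, n = 5), *URA3* 11.83 ± 0.07, *HIS3* 10.08 ± 0.30 and *ADE2* 9.64 ± 0.10. All carry mutant alleles according to the labels, and all were well above background, with *LEU2* and *URA3* brighter than the median of all genes and *HIS3* and *ADE2* dimmer.

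The brightest genes served glycolysis and translation. Of the 20 with the highest mean, among probe sets without a suffix for shared sequence, 8 encode enzymes of glycolysis and fermentation and 8 encode cytosolic ribosomal proteins. *TDH3*, the main glyceraldehyde-3-phosphate dehydrogenase, was the brightest gene of all, with 14.74, 14.80, 14.74, 14.70 and 14.75. Among the 20, it was followed by *PDC1*, the main pyruvate decarboxylase, at 14.44 ± 0.03 and by *GPM1*, phosphoglycerate mutase, at 14.43 ± 0.02 (SD, n = 5). *CDC19*, pyruvate kinase, had 14.40, 14.38, 14.39, 14.39 and 14.39, an SD of 0.01. *ENO2*, *ADH1*, *PGK1* and *FBA1* completed the glycolytic group, between 14.28 and 14.34. The ribosomal protein genes among the 20 were *RPS21A*, *RPL30*, *RPS15*, *RPL10*, *RPS21B*, *RPL3*, *RPL29* and *RPS8B*, between 14.24 and 14.42. The 4 others were *CCW12*, a mannoprotein of the cell wall (14.43 ± 0.05), *ASC1*, a protein bound to the small ribosomal subunit (14.30 ± 0.04), *SSB1*, a chaperone on the ribosome (14.23 ± 0.06), and *TMA19*, a ribosome-associated protein (14.23 ± 0.02).

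Among the 100 brightest genes, with means of 13.85 and over, 64 were cytosolic ribosomal protein genes, 10 belonged to glycolysis and fermentation and 5 encoded translation factors. Their genes were shorter than most, with a median length of 842.5 bp against 1236 bp over all genes. The gene length was no multiple of 3 in 30 of the 100, of which 29 encode ribosomal proteins, against 3.03% of all genes. Such a length is found in genes that hold more than 1 continuous coding sequence, as with an intron. Over all 5449 genes, length and signal were nearly unrelated (Spearman's rho = 0.01), and only genes of up to 300 bp stood lower as a group, with a median of 8.80 (n = 243).

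**Figure D2:**
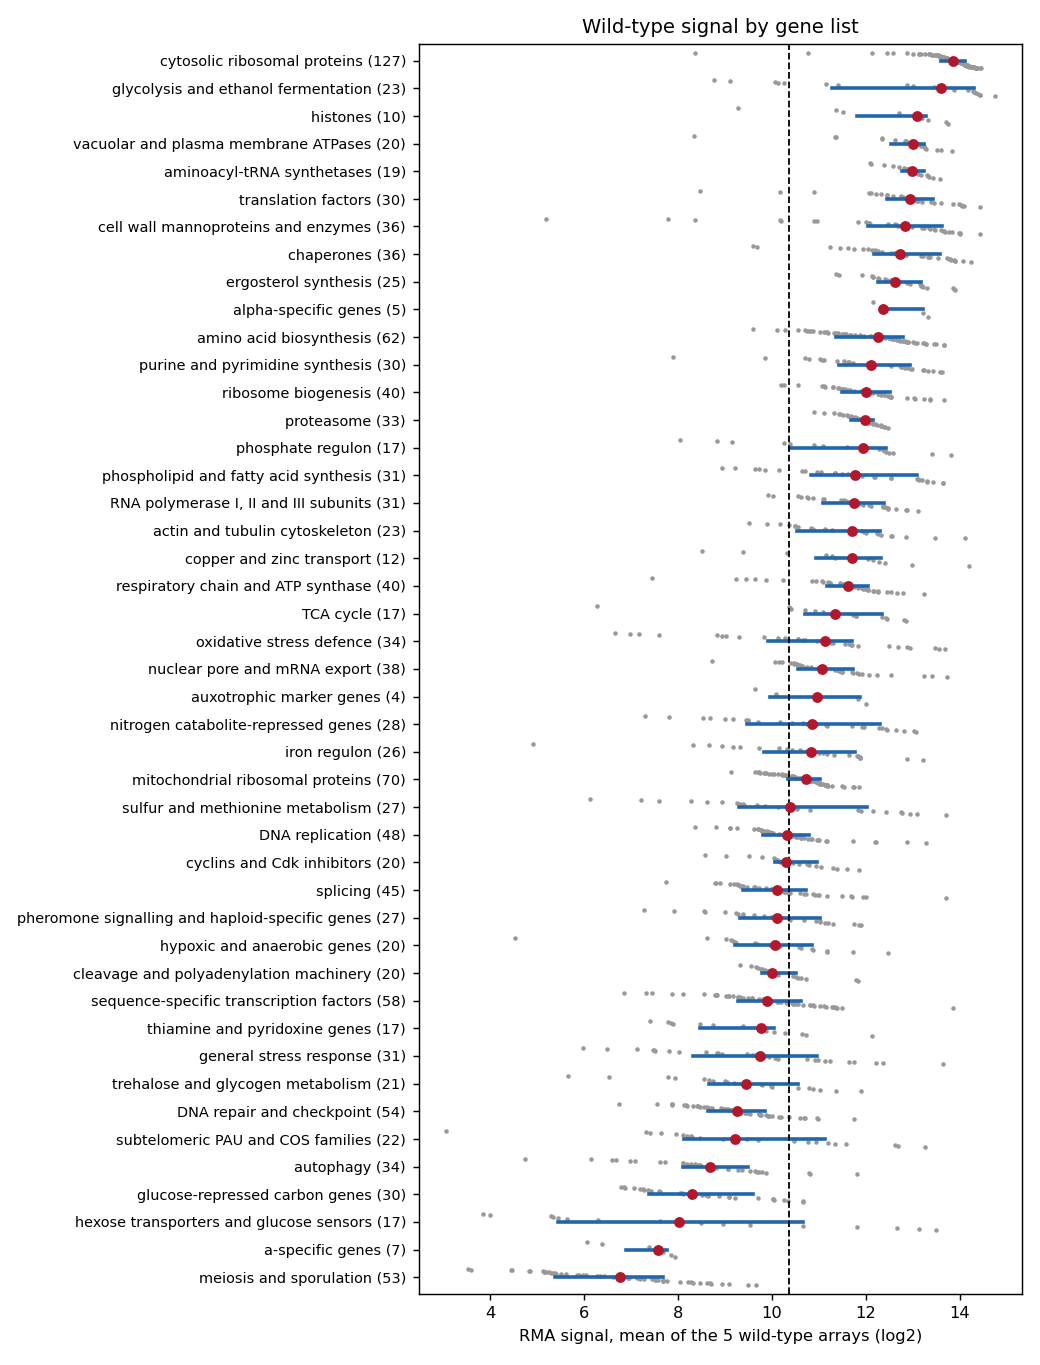
Wild-type signal (log2, mean of 5 arrays) of 45 gene lists, ordered by median, with the number of genes measured in parentheses; grey points are genes, red points medians, blue bars run between the quartiles of each list, and the dashed line the median of all genes, 10.35. Ribosomal proteins and glycolysis lie at the top with medians of 13.85 and 13.60, and meiosis lies at the bottom with 6.77.

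Of the 45 lists, 28 had a median above that of all genes, 10.35. The 127 cytosolic ribosomal protein genes had a median of 13.85, with quartiles of 13.59 and 14.10. Aminoacyl-tRNA synthetases, which charge tRNAs, had 12.98 and translation factors 12.94, below glycolysis, histones and the vacuolar and plasma membrane ATPases, and the dimmest synthetase, *GLN4*, still had 12.08. Ribosome biogenesis had a median of 12.01, between *SPB4*, an RNA helicase, at 10.19 and *NHP2*, a snoRNP protein, at 13.65. Mitochondrial ribosomal proteins lay much lower than their cytosolic counterparts, with a median of 10.72.

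Pairs of genes for related proteins often differed widely. Of the genes for translation factor eIF5A, *HYP2*, the aerobic form, averaged 14.04 ± 0.04 and *ANB1*, the hypoxic form, 10.18 ± 0.19. *COX5A* had 12.16 ± 0.08 and its hypoxic counterpart *COX5B* 9.64 ± 0.40, with 10.16, 9.99, 9.36, 9.36 and 9.32 on the 5 arrays. *CYC1*, the main cytochrome c gene, had 12.44 ± 0.14 and *CYC7* 9.22 ± 0.07. The aerobic form was the brighter on every array in each of these pairs. Of the pyruvate decarboxylases, *PDC5* had 10.07 ± 0.13 and *PDC6* 8.77 ± 0.22, against 14.44 for *PDC1*. The enolases were close, with *ENO2* at 14.34 ± 0.07 and *ENO1* at 13.87 ± 0.07.

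The hexose transporter family, which brings sugar into the cell, was uneven. The hexose transporter genes *HXT3*, *HXT2*, *HXT1* and *HXT4* averaged 13.48 ± 0.03, 13.12 ± 0.30, 12.65 ± 0.06 and 11.80 ± 0.13. The sensors *RGT2* and *SNF3*, which signal high and low glucose, had 9.53 ± 0.16 and 8.95 ± 0.05. *HXT10* and *HXT13* were dim, at 5.30 ± 0.46 and 4.00 ± 0.53, near background. Of the list's 17 measured genes, 12 lay below the median of all genes.

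Genes that glucose represses were dim as a group, with a median of 8.30, and 28 of 30 lay below the median of all genes. *ALD4*, a mitochondrial aldehyde dehydrogenase, was the brightest of them at 10.67 ± 0.17. *GAL10* of galactose use averaged 6.79 ± 0.74 and *CAT8*, an activator of gluconeogenic genes, 6.85 ± 0.25. Respiration itself was not dim. The respiratory chain and ATP synthase had a median of 11.61 and the TCA cycle list 11.34. That list ran from *CIT3* at 6.29 to *CIT2* at 12.86, and *CIT2* encodes a peroxisomal citrate synthase, not a mitochondrial one.

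Several lists of biosynthesis were high, but not all. Ergosterol synthesis had a median of 12.62 with all 25 genes above the median of all genes, amino acid biosynthesis 12.25 and purine and pyrimidine synthesis 12.10. Phospholipid and fatty acid synthesis had 11.76. Sulfur and methionine metabolism lay near the median of all genes, at 10.39, and thiamine and pyridoxine genes below it, at 9.77. *ERG25*, a C-4 methyl sterol oxidase, averaged 13.90 ± 0.08, and *ASN1*, asparagine synthetase, 13.66 ± 0.10. Chaperones had a median of 12.72 and cell wall genes 12.82, while the flocculin genes *FLO1* and *FLO11*, among the cell wall genes, had 5.19 ± 0.16 and 7.78 ± 0.17. The vacuolar and plasma membrane ATPases had 13.01, with *PMA1*, the main plasma membrane proton pump, at 13.59 ± 0.05 and its isoform *PMA2* at 8.33 ± 0.35. The 33 proteasome genes were even, with quartiles of 11.67 and 12.15, and *RPN4*, the activator of proteasome genes, was the dimmest of them at 10.90 ± 0.12.

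Lists of nuclear functions lay on both sides of the median of all genes. Histones had a median of 13.08, RNA polymerase subunits 11.74 and nuclear pore and mRNA export 11.07. DNA replication had a median of 10.32, cyclins and Cdk inhibitors 10.31, splicing 10.12, cleavage and polyadenylation 10.01, transcription factors 9.90 and DNA repair 9.26. Single members stood far above their list. *GCN4*, the activator of amino acid biosynthesis, had 13.84 ± 0.07, while the second brightest transcription factor named by the same rule, *MCM1*, had 11.49 ± 0.13. *SNU13*, shared by the spliceosome and snoRNPs, had 13.70 ± 0.01 and *RNR4*, a ribonucleotide reductase subunit, 13.27 ± 0.04.

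The meiosis and sporulation list was the dimmest, with a median of 6.77, and none of its 53 genes reached the median of all genes. *REC107*, for meiotic recombination, was the brightest at 9.67 ± 0.24. *MEI5* and *PFS1* were not above background on any array, with highest values of 4.29 and 3.81. The 26 genes below background everywhere included 13 of at most 300 bp, and 7 have a gene name: *AIF1*, *COS12*, *HMRA1*, *MEI5*, *PDR18*, *PFS1* and *YPS5*. The dimmest gene of all was the short open reading frame *YER175W-A*, at 2.67.

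Position on the chromosome also went with the signal. Genes among the 5 outermost at a chromosome end had a median of 8.49 (n = 93) and those at places 6 to 10 a median of 9.48 (n = 131), against 10.39 for genes more than 40 places from an end (n = 4376). No chromosome was shifted on any array: chromosome medians of the deviation from the 5-array mean lay between -0.06 and 0.05.

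Spread among the 5 arrays depended strongly on signal. The median SD over all genes was 0.13, and it was 0.06 for genes with a mean of 13 or more, 0.11 at 10 to 11 and 0.48 at 5 to 6. Dim genes followed a split of their own: at means of 5 to 6 (98 genes), replicates 3 and 4 lay above the gene mean by a median of 0.42 and 0.37, and replicates 1, 2 and 5 lay 0.36, 0.11 and 0.32 below it. At means of 9 and over, no such median deviation exceeded 0.03 in size. Meiosis, the dimmest list, had median deviations of 0.26 and 0.21 on replicates 3 and 4. On replicates 1, 2 and 5 it had -0.15, -0.16 and -0.13. The a-specific genes had 0.28 and 0.31 on replicates 3 and 4, but -0.33, 0.13 and -0.49 on replicates 1, 2 and 5.

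**Figure D3:**
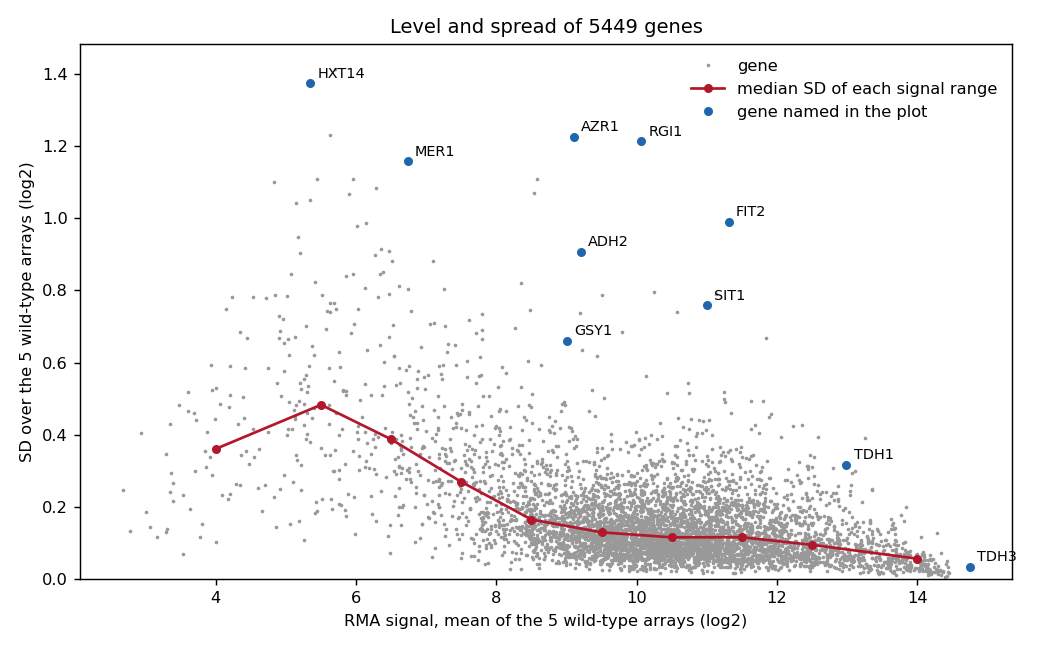
SD over the 5 wild-type arrays against mean signal (both log2) for 5449 genes (grey), with the median SD of each signal range (red) and named genes (blue). The spread is widest below a signal of 7 and narrows to a median SD of 0.06 at 13 and over, and *AZR1*, *RGI1* and *FIT2* stand above the other genes of their signal.

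A limma variance model, with a prior that followed the signal, called no gene as more variable than others of its level (0 of 5449 genes, 0% at an adjusted p under 0.01; 222 genes had an unadjusted p under 0.05, and the smallest adjusted p was 0.945). The prior had 3.52 degrees of freedom, so variances could differ widely between genes without a call, and a p that misses the threshold does not show equal spread. The genes with the largest SD are therefore given as a description, chosen after their values were seen. The 20 largest SDs, among genes with a mean over 7 and no suffix for shared sequence, lay between 0.70 (*ADY2*) and 1.23 (*AZR1*), and the next gene, *SNO1*, had 0.69.

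Replicates 1 and 2 were the highest in 5 of the 20 genes, the lowest in 7 and neither in 8. These counts are near the shares over all genes, where the same arrays were the highest in 27.9%, the lowest in 29.4% and so at one end in 57.2%. *AZR1*, a transporter of the plasma membrane linked to azole resistance, had 7.99 and 7.56 on replicates 1 and 2 and 10.07, 10.06 and 9.84 on replicates 3, 4 and 5. *RGI1*, a gene induced in respiratory growth, ran the opposite way with 11.51 and 11.28 against 9.27, 9.12 and 9.15. The 2 sets differed by -2.21 for *AZR1* and 2.21 for *RGI1* on the log2 scale, while the SD among replicates 3 to 5 was 0.13 and 0.08.

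The glucose-repressed alcohol dehydrogenase gene *ADH2* had 8.29 and 8.18 on replicates 1 and 2 and 9.94, 9.55 and 10.06 on the others. *INO1*, which makes inositol phosphate and is repressed by inositol, had 8.69 and 8.42 there and 9.63, 9.45 and 9.91 on the others. *PHO89*, a phosphate transporter, had 9.34 and 9.51, then 10.96, 11.05 and 10.40. These 3 genes were lower on replicates 1 and 2, with no overlap, as were 29.4% of all genes. The uncharacterised neighbours *YFL067W* and *YFL068W*, at the end of chromosome VI, each had the lowest value on replicate 5 (7.16 and 7.32) and the highest on replicate 2 (10.21 and 9.95). *YFL068W* was higher on replicates 1 and 2 with no overlap, as were 27.9% of all genes. In contrast, *YFL067W* overlapped, with 8.55 on replicate 1 and 8.81 on replicate 3. *GAL2* and *GAL7*, of galactose uptake and use, had their highest values on replicates 3 and 4 and the lowest on replicate 5. Dim genes as a group were also highest on replicates 3 and 4. They were about as low on replicate 1 as on replicate 5, with medians of -0.36 and -0.32 at means of 5 to 6.

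**Figure D4:**
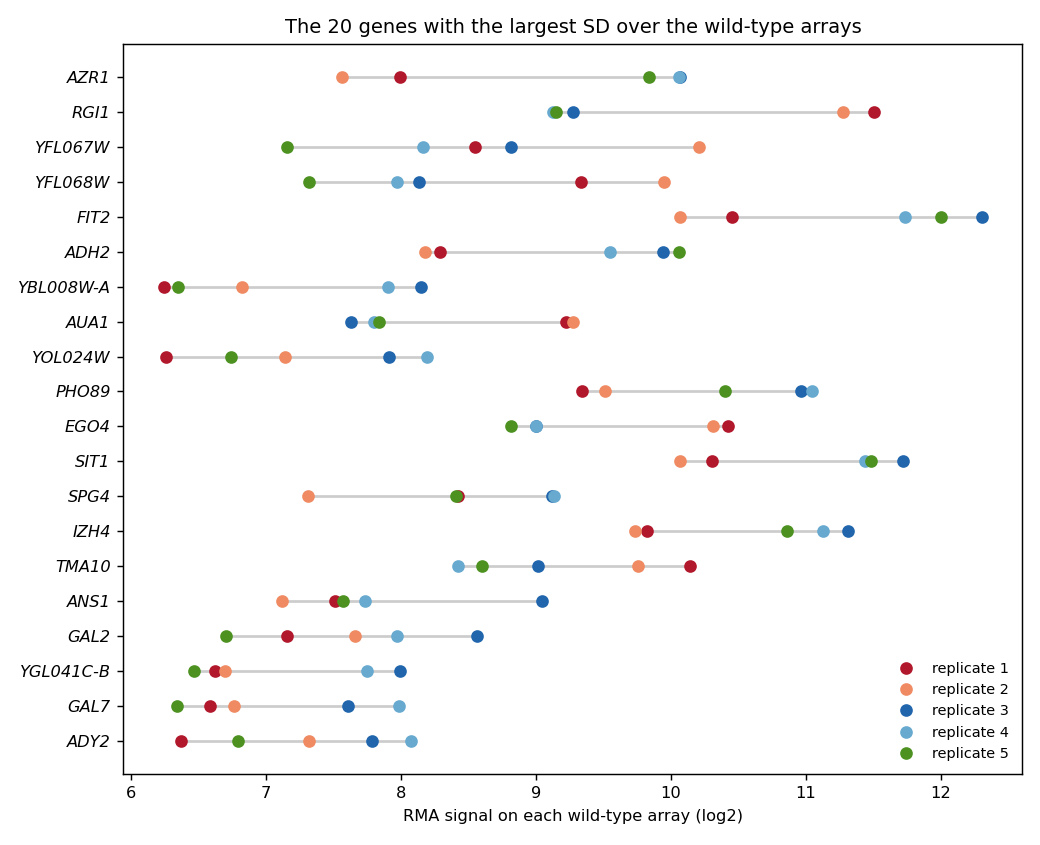
Signal on each wild-type array (log2, horizontal axis) of the 20 genes with the largest SD among genes with a mean over 7, one coloured point per replicate. Replicates 1 and 2 lie together at one end for 12 of the 20 genes, among them *AZR1*, *RGI1*, *FIT2* and *SIT1*, near the share of 57.2% over all genes.

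The spread of these genes was looked at in the mutant arrays, which had no part in choosing them. Of the 19 with a mean over 7 in *rna14-1*, 9 were in the top 10% of genes by SD over the 3 arrays. In *rna15-1* it was 8 of 18, and 6 of 18 without its replicate 3. *AZR1* had an SD of 0.08 in *rna14-1*, and *EGO4* had 0.27 in *rna14-1* and 0.73 in *rna15-1*. Across the 5110 genes with a mean over 7 in both, the SDs of wild type and *rna14-1* had a Spearman's rho of 0.22, a description over genes with no test. Neither the ranks nor the rho were matched for signal. In wild type, 7 of the 20 genes had a mean under 8, and at 7 to 8 the median SD was 0.27. The part of signal level in these counts was not tested.

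The split between replicates 1 and 2 and the other 3 ran through the whole table. Replicates 1 and 2 were the highest 2 arrays in 27.9% of all genes and the lowest 2 in 29.4%, so that they formed one end in 57.2%. For the other pairs of arrays this share lay between 6.31% and 33.5%. Most of these differences were small: among genes with a mean over 7, replicates 1 and 2 averaged over 1 higher than the rest in 9 genes and over 1 lower in 12.

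The iron regulon, genes of iron uptake and use that for the most part are turned on by Aft1 and Aft2 when iron is short, was lowest on replicates 1 and 2 in 23 of 26 genes and highest in none, beside 29.4% and 27.9% of all genes. *FIT2*, a cell wall mannoprotein that holds iron-bound siderophores, had 10.45 and 10.07 on replicates 1 and 2 and 12.30, 11.74 and 12.00 on replicates 3, 4 and 5. *SIT1*, a siderophore transporter, had 10.30 and 10.07 against 11.72, 11.44 and 11.49. *FRE4*, a ferric reductase, had 11.08 and 11.17 against 12.54, 12.18 and 12.22. In the high-affinity uptake complex, the multicopper oxidase *FET3* had 12.59 and 12.61 against 13.17, 13.01 and 12.95, and its permease *FTR1* had 11.43 and 11.62 against 12.21, 12.03 and 12.04. The difference of the 2 sets had a median of -0.51 over the 26 genes, between -1.75 for *FIT2* and 0.01 for *MRS4*, a mitochondrial iron carrier, against a median of -0.01 over all genes. Copper and zinc transport genes were lowest on replicates 1 and 2 in 8 of 12 and highest in 2, with the copper transporter *CTR1* at 12.78 and 12.77 against 13.21, 13.03 and 13.08.

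Storage carbohydrate genes ran the other way. Of 21 genes of trehalose and glycogen metabolism, 16 were highest on replicates 1 and 2 and none was lowest. Over all genes, 27.9% were highest and 29.4% lowest there. *GSY1*, glycogen synthase, had 9.73 and 9.69 on replicates 1 and 2 and 8.45, 8.75 and 8.39 on the others. *TPS1*, trehalose-6-phosphate synthase, had 11.72 and 11.72 against 11.09, 11.16 and 11.12, and *TSL1*, a large subunit of the same complex, had 10.42 and 10.44 against 9.73, 9.65 and 9.68. The difference was positive in all 21 genes, with a median of 0.35, against -0.01 over all genes. Its highest value was 1.18 for *GSY1*.

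Of the 31 general stress genes, 16 were highest on replicates 1 and 2 and 2 were lowest, beside 27.9% and 29.4% of all genes. *HSP104*, a disaggregase, had 12.71 and 12.65 against 12.02, 11.90 and 11.83, and *SPI1*, a cell wall protein, 11.37 and 11.19 against 10.62, 10.29 and 10.24. The difference of the 2 sets was below 0 in 8 of the 31, among them *HSP12*, with 11.37 and 11.04 against 11.87, 12.00 and 11.90. Chaperones were highest in 20 of 36 and lowest in 6. The glycolytic *TDH1*, an isoform of *TDH3*, had 13.40 and 13.26 against 12.82, 12.76 and 12.71, and the glucokinase gene *GLK1* had 11.69 and 11.71 against 11.25, 11.26 and 11.16.

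Lists of biosynthesis and translation did not move alike. Their counts stand beside 27.9% of all genes highest and 29.4% lowest on replicates 1 and 2. Ribosome biogenesis genes were lowest on replicates 1 and 2 in 24 of 40 and highest in 4, with a median difference of -0.13. *SOF1*, a part of the small-subunit processome, had 10.75 and 10.60 against 11.34, 11.30 and 11.34. Ergosterol synthesis was lowest in 16 of 25 and highest in 3, with a median difference of -0.11, and thiamine and pyridoxine genes were lowest in 10 of 17 and highest in none, with a median difference of -0.24. *SNO1*, of pyridoxine synthesis, had 7.02 and 7.06 against 8.43, 8.24 and 8.20. Amino acid biosynthesis was highest in 21 of 62 and lowest in 15, and translation factors highest in 10 of 30 and lowest in 8. Both lists were near the shares over all genes. The cytosolic ribosomal protein genes were highest in 43 of 127 (33.9%) and lowest in 18 (14.2%), beside 27.9% and 29.4% of all genes, and their median deviation on the 5 arrays lay between -0.02 and 0.03.

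**Figure D5:**
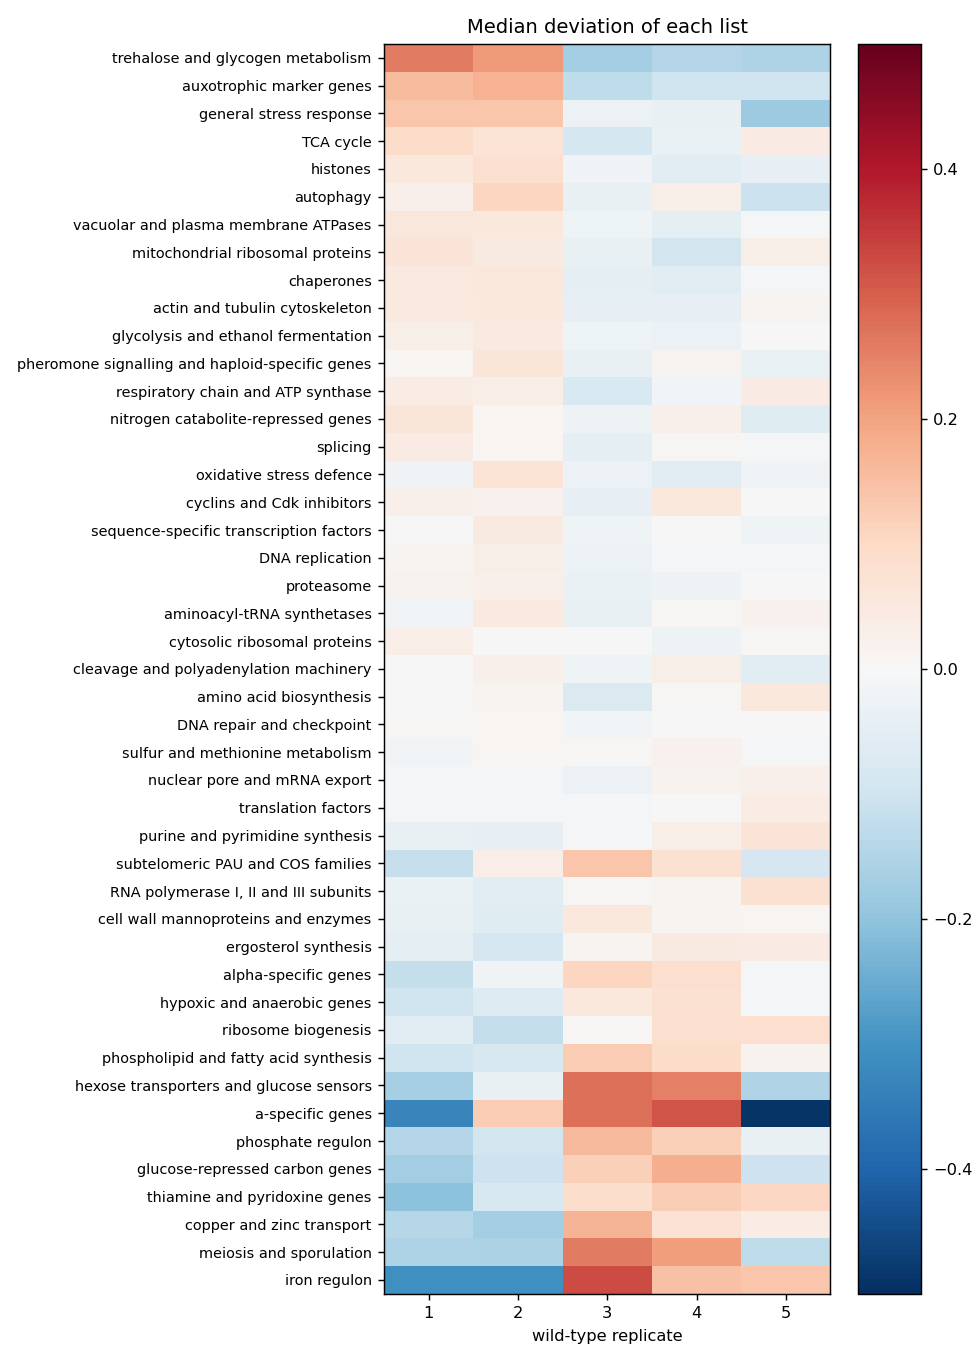
Median deviation of each gene list (rows, ordered by their mean on replicates 1 and 2) from the genes' own 5-array means (log2, colour scale) on each wild-type replicate (columns). Trehalose and glycogen metabolism lies above its mean on replicates 1 and 2 (0.26 and 0.21) and the iron regulon below it (-0.31 and -0.31), while DNA repair stays between -0.02 and 0.01 on all 5.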

How the data were processed

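The members and gene lists were chosen with earlier results of these data known. Total RNA was labelled with biotin and hybridised to Affymetrix yeast arrays. The authors deposited log2 intensities of 10928 probe sets for 11 arrays, normalised together by RMA. GCOS, RMA and limma are named in the submitters' processing notes, with versions not given in the sources used here. The number of arrays limits the precision. Nothing beyond the labels says that the replicates came from separate cultures, so the spread and the p-values measure only these samples.

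Probe sets were named by the platform annotation (7244 with 1 gene symbol, 1 with several, 3683 with none) and matched to the RefSeq R64 gene table, which gave 5498 probe sets of 5449 genes. The probe set with the highest mean stood for a gene with several. A suffix of the maker marks shared sequence in 114 genes, which were not chosen to be named. The gene table was used for names, lengths and gene order, and no coordinates are given.

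limma 3.58.1 in R 4.3.3 tested spread over the 5 wild-type arrays (F test of each variance against a trended, robust prior) and wild type minus each mutant (1 coefficient per strain, all 11 arrays), with Benjamini-Hochberg adjustment over all genes. Both scripts were tested on simulated data. The rule named, without suffix genes, the 20 brightest genes, the 20 with the largest SD and a mean over 7, the 2 brightest, the 2 dimmest and the most variable gene of each list, all mating-type and marker genes, and isozyme pairs. Since no gene passed the spread test, the SD rule was applied to all genes, and other genes of the iron, carbohydrate and stress lists were chosen after their values were seen. Alternatives were arrays left out, quantile normalisation, other probe set rules, thresholds and fits, and, chosen after seeing the data, replicates 3 to 5 alone. Figures were drawn with matplotlib.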

Additional observations from a re-analysis of the deposited data

Results flagged for a closer look

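Among 266 genes tested for 1 array far from the other 4, 7 were marked, and chance alone marks about 1 in 20. *ARG3*, of arginine synthesis, had 11.66 on replicate 5 and 10.93 to 11.11 on the others (gap of 0.761 of the range). *DAN1*, an anaerobic cell wall gene, had 5.27 on replicate 3 and 4.29 to 4.41 on the others (0.877), near background. *PDC5* had 9.84 on replicate 2 and 10.10 to 10.16 on the others (0.809), and *PRP38*, a splicing factor, had 8.48 on replicate 1 and 8.80 to 8.91 on the others (0.743). *RPL3* had 14.33 on replicate 1 and 14.27 to 14.29 on the others (0.770). *VTC1*, of the vacuolar polyphosphate complex, had 13.33 on replicate 1 and 13.42 to 13.45 on the others (0.741). *YPS5*, below background, had 4.21 on replicate 2 and 3.52 to 3.71 on the others (0.727). Of the probe sets without a gene name that are not controls of the maker, 301 were above background on all 5 wild-type arrays. They were not analysed further.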

How the results depend on the processing

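The variance model called 0 genes in each of its alternatives, with 207 to 248 genes at an unadjusted p under 0.05 in those that kept 4 or 5 arrays. In the main setting 272 such genes are expected. Replicates 3 to 5 alone gave 294, with a smallest adjusted p of 0.137 in the limma variance model. Their median SD was 0.07. With the 99th percentile of the background probe sets in place of the 95th, 106 genes were above background on some arrays and 56 on none. With replicates 3 to 5 alone, a setting chosen after seeing the data, 29 lists lay above the median of all genes, 27 genes were below background on all arrays, and 7 and 11 mating-type genes were lower in wild type than in *rna14-1* and *rna15-1*. There 9 of 45 list medians moved by more than their SD over the arrays, by up to -0.25 for trehalose and glycogen metabolism. Without genes of shared sequence, 5 list medians moved, by up to -0.36 for copper and zinc transport. Averaging probe sets moved 2 of 239 gene means, *PAU23* by 1.45. Quantile normalisation ended the call of *STE2* against *rna14-1* (-0.47, limma adjusted p = 0.0147). Deviations of arrays with the same replicate number had correlations of -0.14 to 0.34 between strains. Arrays with different numbers were not compared, so these values cannot decide whether the numbers pair the samples. With the replicate block, 6 and 11 mating-type genes were lower in wild type than in *rna14-1* and *rna15-1*, and *STE2* lost its call (-0.88, limma adjusted p = 0.0105). It changed no other call of these genes.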
